A study of Mus musculus with 16 samples.

Results

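The cells described here were CD45+ leukocytes of rejecting mouse kidney allografts, 1 week after transplantation, that carried RNA of Ly6c2, the surface protein by which inflammatory monocytes are recognised, and little RNA that marks the other monocyte-derived classes of the graft. A cell was counted if it held at least 2 UMIs of Ly6c2 and at least 1 of Lyz2 or Csf1r, fewer than 3 over C1qa, C1qb and C1qc together, fewer than 2 of Arg1, fewer than 3 of Il1b, and no UMI of Cd3e, Cd3d, Cd3g or Cd79a. The members were thus chosen by these measured counts, which are given below as a description. A UMI (unique molecular identifier) stands for 1 captured RNA molecule. The rule was met by 2055 of the 11948 CD45+ cells of the rejecting kidney, in a series that holds 291325 CD45+ cells in all.

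Rejection was studied in kidneys of C57BL/6 (B6) mice placed into DBA/2J recipients, and the CD45+ cells were profiled by droplet single-cell RNA sequencing of the 3' ends of transcripts. Naive spleen was the only other CD45+ population with a count matrix analysed here; CD45+ matrices of the accepted grafts were not analysed here. The labels give strain C57BL/6J and genotype WT to both groups and give no age. They do not say which cells of the transplanted kidney came from the recipient, so a graft cell and an infiltrating cell cannot be told apart. Kidneys were perfused and digested with collagenase, whereas spleens were ground mechanically and their red cells lysed, and both were sorted for viable CD45+ cells. The cell barcodes carry tags of 2 kidney libraries and 5 spleen libraries, called kidney libraries 1 and 2 and spleen libraries 1 to 5. The study's methods treat each mouse as its own sample but do not tie a library tag to a mouse, so the p-values measure the spread between libraries.

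Classical monocytes leave the bone marrow through the chemokine receptor CCR2, circulate with high Ly6C on the surface, and enter inflamed tissue, where they lose Ly6C and can take on properties of macrophages or dendritic cells. Interferon-gamma, made by activated T cells and natural killer cells, acts on them through transcription factors, IRF1 among them, that bind gamma-activated sites and interferon-stimulated response elements in the promoters of chemokine, guanylate-binding protein and antigen presentation genes. In allografts such monocytes are known as early infiltrating cells that can present donor antigen.

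The start regions of a few interferon-gamma response genes whose RNA stood far above naive spleen are shown first, because their levels are described further on. Each is the 250 bases before the annotated start in RefSeq on GRCm38.p6, 5' to 3' on the strand of the gene. Capitals mark a match, on either strand, to the core of the interferon-stimulated response element (GAAA, any 2 bases, GAAA) or to the gamma-activated site (TTCNNNGAA).
Cxcl10: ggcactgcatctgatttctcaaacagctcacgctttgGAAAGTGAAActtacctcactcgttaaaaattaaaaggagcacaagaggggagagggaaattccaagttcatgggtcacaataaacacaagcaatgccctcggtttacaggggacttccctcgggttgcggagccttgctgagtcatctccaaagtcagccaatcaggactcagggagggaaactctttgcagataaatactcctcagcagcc
Gbp2: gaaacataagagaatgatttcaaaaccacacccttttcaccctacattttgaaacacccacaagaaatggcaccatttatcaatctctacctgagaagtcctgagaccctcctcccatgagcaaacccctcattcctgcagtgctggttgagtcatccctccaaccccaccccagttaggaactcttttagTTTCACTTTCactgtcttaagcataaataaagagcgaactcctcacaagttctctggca
Irf1: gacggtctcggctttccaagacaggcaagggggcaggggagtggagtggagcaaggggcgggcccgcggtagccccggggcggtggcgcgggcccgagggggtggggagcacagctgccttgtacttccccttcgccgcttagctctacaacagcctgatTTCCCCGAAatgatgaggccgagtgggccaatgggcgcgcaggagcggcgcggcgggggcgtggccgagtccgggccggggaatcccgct
Cxcl9: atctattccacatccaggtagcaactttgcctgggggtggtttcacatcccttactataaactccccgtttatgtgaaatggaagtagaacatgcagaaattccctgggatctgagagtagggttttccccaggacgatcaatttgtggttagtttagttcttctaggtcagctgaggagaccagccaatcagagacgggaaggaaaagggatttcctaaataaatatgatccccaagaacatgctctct
The Cxcl10 window lies at chr5:92348890-92349139 on the minus strand, and its match begins at position -213 from the start. The Gbp2 window lies at chr3:142620413-142620662 on the plus strand, with a match at -59 that reads on the opposite strand. The Irf1 window, of the more upstream of its annotated starts, lies at chr11:53769764-53770013 on the plus strand and holds a gamma-activated site at -90. The Cxcl9 window, at chr5:92328080-92328329 on the minus strand, holds neither run of letters, which says nothing of what binds there. The response element core was found before the start of 7 of the 13 genes of the interferon-gamma list that the table holds (53.8%) and of 936 of all 27025 genes (3.46%). The gamma-activated site was found for 4 of those 13 genes (30.8%) and for 2197 of all genes (8.13%). Of 12 genes of the type I interferon list, 6 held the response element core (50%) and 2 the gamma-activated site (16.7%). None of 4 MHC class II genes held either motif. A response element core was present for 1 of 12 classical monocyte genes (8.33%) and a gamma-activated site for 2 of them (16.7%). A match is a description of letters and was not tested as a site.

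The 2 kidney libraries held very different shares of these cells. In kidney library 1, 264 of 5377 CD45+ cells met the rule (4.91%, exact 95% interval 4.35 to 5.52), and in kidney library 2, 1791 of 6571 did (27.3%, 26.2 to 28.4). Kidney library 2 thus supplied most of the members, and each level below is given for both libraries. The same rule was met by 302 of 47060 naive spleen cells, from 7 in spleen library 5 to 143 in spleen library 1. The mean share was 16.1% ± 15.8 (SD, n = 2) in the rejecting kidney and 0.609% ± 0.540 (SD, n = 5) in naive spleen. Both kidney libraries lay above every spleen library. This is a description with no test, since the rule was set for cells of the rejecting kidney. Intervals cover counting error only.

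**Figure D1:**
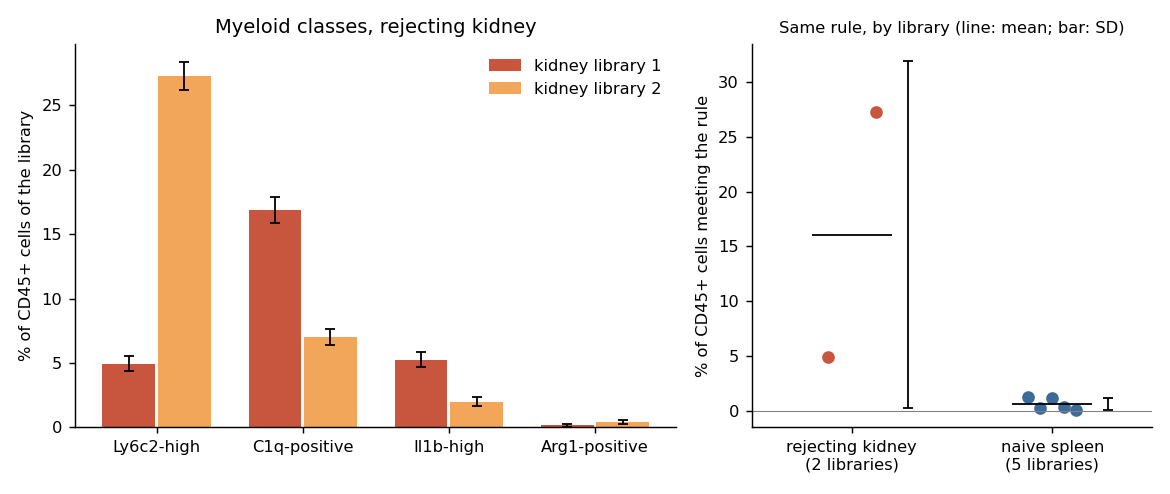
Left, percent of the CD45+ cells of each kidney library in 4 myeloid classes, with exact 95% intervals: the Ly6c2-high cells made up 4.91% of library 1 and 27.3% of library 2, while the C1q-positive cells made up 16.9% and 7.02%. Right, percent of CD45+ cells that met the same rule in each of 2 kidney and 5 naive spleen libraries, with the mean as a line and the SD as a bar beside it.

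The other myeloid classes were cut by their own genes from cells of the same libraries with a Lyz2 or Csf1r UMI. These cells also held no UMI of Cd3e, Cd3d, Cd3g or Cd79a and fewer than 2 of Ly6c2. A cell past the limits of more than 1 of these classes was put in none. So cut, the C1q-positive and Il1b-high cells took a larger share of kidney library 1. C1q-positive cells, with at least 3 UMIs of the complement genes that mark resident and maturing macrophages, numbered 907 in kidney library 1 (16.9%) and 461 in kidney library 2 (7.02%). Il1b-high cells, with at least 3 UMIs of interleukin-1 beta, numbered 282 (5.24%) and 129 (1.96%). Another 408 kidney cells met the rest of the members' rule but held at least 3 Il1b UMIs, and they belong to neither class. With the cuts on Arg1 and Il1b left out, the members' rule was met by 348 cells of kidney library 1 and 2158 of kidney library 2. With them it was met by 264 and 1791, so most of the 408 cells lay in kidney library 2. The Il1b-high shares, and their difference between the libraries, are thus not those of all cells with that much Il1b. Arg1-positive cells numbered 8 and 27 and were too few to describe further. The cut on Ly6c2 falls within a continuous range: 762 cells that met the rest of the rule held 1 Ly6c2 UMI and stayed outside, and 483 members held exactly 2. Members held a median of 4 Ly6c2 UMIs, 3 in kidney library 1 and 4 in kidney library 2, and at most 38. At the other borders 37 members held 2 C1q UMIs against 22 cells just outside with 3, 26 members held 1 Arg1 UMI against 9 cells outside with 2, and 129 members held 2 Il1b UMIs against 71 outside with 3. Members had a median of 2430 UMIs, C1q-positive cells 2669, and the 2184 CD8+ T cells that the authors deposited as a matrix of their own 1964. None of the members was among those CD8+ T cells, and although 13 barcodes occurred in both kidney libraries, 0 belonged to a member of both.

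The rule itself selected for myeloid RNA and against T and B cell RNA, and the acute-phase and chitinase markers of the label, which it did not use, were present in a minority of the members. All levels are CPM, counts per 1000000, the UMIs of a gene as a part of all UMIs summed over the cells of 1 class in 1 library. Lyz2, the lysozyme of the granulocyte and monocyte lineage and part of the rule, stood at 7953 CPM in kidney library 1 and 10031 CPM in kidney library 2, against 104 and 116 CPM in CD8+ T cells of the same libraries, a difference that the rule fixed. Chil3, which encodes the chitinase-like protein Ym1, stood at 181 and 83.5 CPM in members, 12.2 and 8.21 CPM in C1q-positive cells and 1.68 and 0.324 CPM in CD8+ T cells. Saa3, the acute-phase serum amyloid made outside the liver, stood at 145 and 313 CPM in members, 26.4 and 75.3 CPM in C1q-positive cells and 2.10 and 3.57 CPM in CD8+ T cells. Both markers were thus well above their levels in T cells, and in opposite order between the libraries.

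The share of members with a UMI was counted after thinning each cell to 1000 UMIs, which no member fell short of. Chil3 was then found in 7.69% of members (11.7% in kidney library 1, 7.09% in kidney library 2; 15.7% in all without thinning) and in 0.0916% of CD8+ T cells, whose median depth was 1964 UMIs. Saa3 was found in 15.2% (6.82% and 16.5%; 22.4% without thinning). At least one of the 2 genes was seen in 21.2% of members, and both in 36 of the 2055. Ccr2, the receptor that brings classical monocytes out of the marrow, was found in 51.9% of members and in 18.1% of CD8+ T cells. The C1q-positive cells were closer, with 40.0% in kidney library 1 and 42.3% in kidney library 2, against 48.9% and 52.4% of members.

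**Figure D2:**
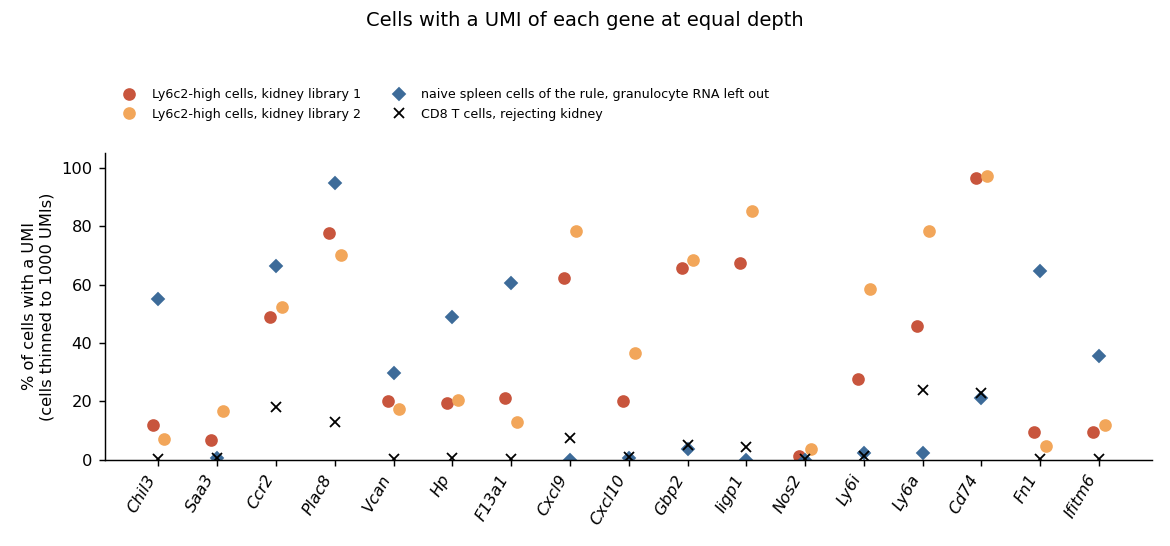
Percent of cells with at least 1 UMI of a gene after each cell was thinned to 1000 UMIs, for members of each kidney library, naive spleen cells of the same rule without granulocyte RNA, and CD8+ T cells of the rejecting kidney. Cxcl9, Gbp2 and Iigp1 were seen in most members and in few naive cells, whereas Chil3 was seen in 7.69% of members and 54.9% of those naive cells.

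RNA of most other lineages was low. Of the members, 7.59% held a UMI of Trac, Trbc1, Trbc2, Cd8a, Nkg7, Ncr1, Cd79b or Siglech, markers of T, NK, B and plasmacytoid dendritic cells. Neutrophil granule RNA (a UMI of Camp, Ltf, Ngp, Ly6g or Retnlg, or at least 10 of S100a9) was held by 1.22%. Camp, Ngp and Retnlg had no UMI in any member, and Ly6g stood at 0 and 0.202 CPM. Other genes of the neutrophil list were not low: S100a8 stood at 693 and 436 CPM, S100a9 at 336 and 91.0 CPM and Csf3r at 84.4 and 101 CPM. The 10 genes of that list summed to 1118 and 631 CPM in members. Their sums were 107 and 91.0 CPM in C1q-positive cells and 21.5 and 9.41 CPM in CD8+ T cells. The 8 T cell markers other than those of the rule summed to 38.2 and 29.1 CPM in members against 4415 and 4264 CPM in CD8+ T cells. Markers of basophils and mast cells summed to 0 and 0.202 CPM, and the 15 genes of kidney epithelium and podocytes to 41.4 and 36.6 CPM, below their sums of 80.4 and 87.9 CPM in CD8+ T cells. Ly6c1, a near-identical neighbour of Ly6c2 whose reads may be divided between the copies, stood at 0 and 2.02 CPM.

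Set against the C1q-positive cells of the same grafts, the members carried more RNA of the classical monocyte programme and less of the macrophage programme. None of the 16 listed interferon-gamma response genes compared differed by 2-fold in both libraries. The comparison is a description with no test, because the rule was built on this contrast. A gene counts as higher or lower where it differed by at least 2-fold the same way in both libraries and reached 50 CPM in the higher class. Of 3644 genes, 86 were higher in members (2.36%) and 67 lower (1.84%). Of the 12 classical monocyte genes compared, 11 were higher and none lower, with a median log2 ratio of 2.69 against -0.019 over all genes. Ccr2 was the gene not past 2-fold, at 914 and 810 CPM in members against 587 and 576 CPM.

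The matrix proteoglycan versican, encoded by Vcan, stood at 287 and 288 CPM in members against 9.17 and 7.53 CPM in C1q-positive cells. The haptoglobin gene Hp stood at 248 and 262 CPM against 15.3 and 14.4 CPM. Plac8, abundant in monocytes fresh from the marrow, stood at 1831 and 1509 CPM against 332 and 335 CPM. In each of these genes both member values lay above both values of the other class. F13a1, a transglutaminase of blood monocytes, stood at 355 and 196 CPM against 35.2 and 23.3 CPM. The calgranulin gene S100a8, which is in the neutrophil list and not the classical monocyte list, had the largest ratio. Its geometric mean over the libraries was 73.1-fold, at 693 and 436 CPM against 3.44 and 16.4 CPM. Of 3 neutrophil genes compared, 2 were higher in members, S100a8 and S100a9.

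Among 7 macrophage genes 5 were lower and none higher, with a median log2 ratio of -1.72. Apoe, the lipid carrier of mature macrophages, stood at 1861 and 388 CPM in members against 7005 and 1055 CPM. Its level differed between the libraries in CD8+ T cells too, at 115 and 9.41 CPM. Mertk, a receptor for the uptake of dying cells, stood at 39.8 and 25.5 CPM against 279 and 86.2 CPM, and Ms4a7 at 36.6 and 57.2 CPM against 395 and 261 CPM. The tetraspanin Cd81 stood at 6.37 and 12.7 CPM against 106 and 153 CPM. Among chemokines Ccl8, a ligand for monocytes and T cells, stood at 4.78 and 19.6 CPM against 209 and 248 CPM. Cxcl16, the ligand of CXCR6, stood at 323 and 419 CPM against 843 and 1154 CPM. Ccl9 and Cxcl2 lay higher in members.

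None of 16 interferon-gamma response genes passed 2-fold in either direction (median log2 ratio 0.43), and none of 7 MHC class II genes did (-0.42). Of all 18 genes of the interferon-gamma list, 11 nevertheless lay above C1q-positive cells in both libraries and 2 below. Of the 7 MHC class II genes, 6 lay below C1q-positive cells in both libraries. Cxcl9, the interferon-gamma-induced ligand of CXCR3 on T cells, stood at 3854 and 3883 CPM in members and at 3209 and 5422 CPM in C1q-positive cells. The MHC class II invariant chain Cd74 stood at 10784 and 9942 CPM in members and at 14170 and 13451 CPM in C1q-positive cells.

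**Figure D3:**
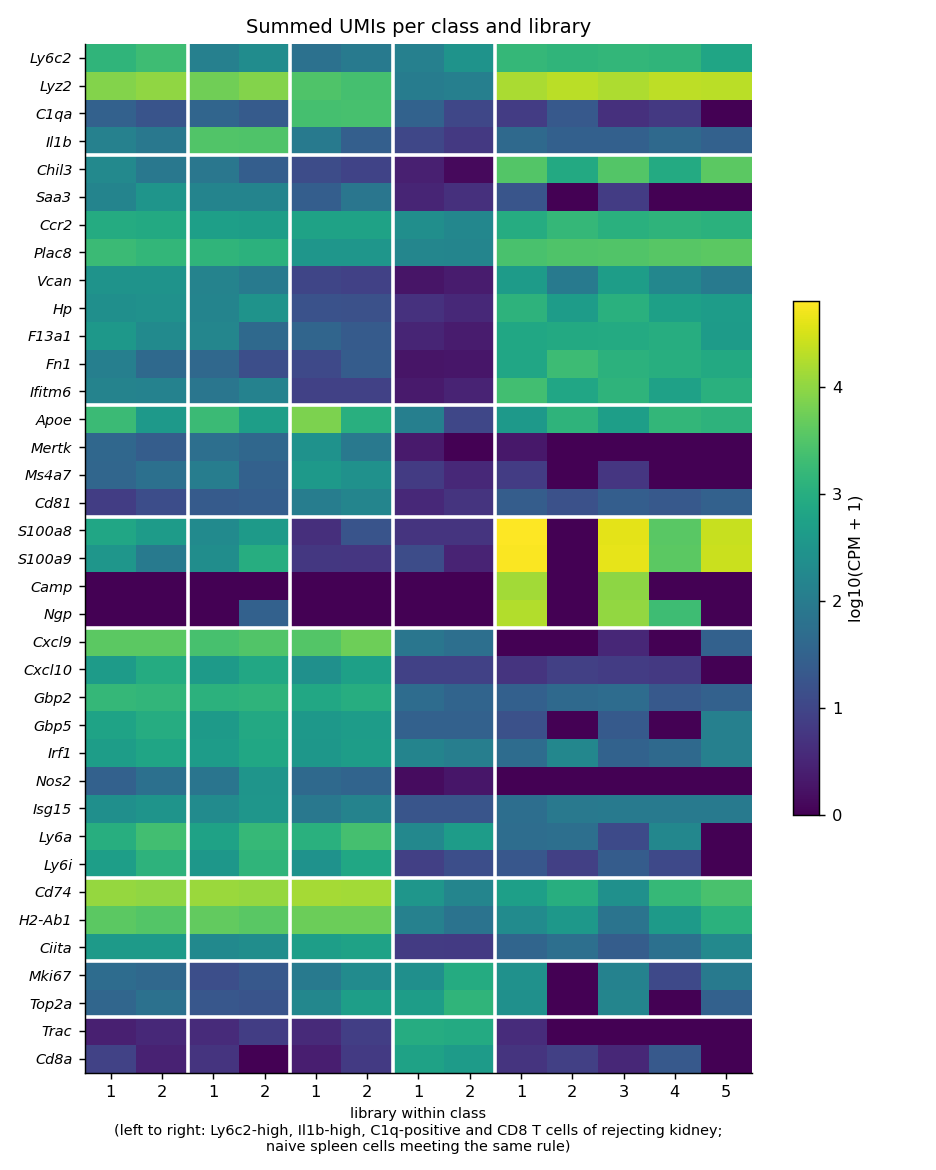
Heat map of log10(CPM + 1) for named genes in members, Il1b-high, C1q-positive and CD8+ T cells of kidney libraries 1 and 2 and in naive spleen cells of the same rule in spleen libraries 1 to 5. Interferon and MHC class II genes are brighter in all 3 myeloid classes of the graft than in naive spleen, whereas Camp and Ngp have no UMI in members.

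The Il1b-high cells carried more RNA of 3 of 7 chemokine genes (Ccl3, Ccl4 and Cxcl2) than the members and less of 4 of 12 classical monocyte genes. This comparison too is a description with no test, because the cuts on Il1b and Ly6c2 set the classes apart. Of 3535 genes, 20 were higher in members (0.566%) and 91 lower (2.57%). The higher genes included F13a1, Chil3 and Vcan, with geometric mean ratios of 3.20, 2.68 and 2.60, and in all 4 of 12 classical monocyte genes were past 2-fold in both libraries. The lower genes were led by Slc7a11, the cystine transporter, and included the neutrophil-attracting chemokine Cxcl2, at 209 and 72.6 CPM in members against 948 and 671 CPM, and Vegfa, a vascular growth factor and the only one of 12 glycolysis and hypoxia genes past 2-fold in both libraries, at 60.5 and 12.7 CPM against 184 and 125 CPM. Of 17 interferon-gamma response genes, Socs1 alone was higher in members and Nos2 alone lower. Nos2, inducible nitric oxide synthase, stood at 30.2 and 59.1 CPM against 72.9 and 312 CPM. Il1rn, the antagonist of the interleukin-1 receptor, stood at 224 and 156 CPM against 420 and 431 CPM, which was not past 2-fold in both libraries. Of 5 genes of the cytokine list compared, only Ptgs2 was lower, which encodes an enzyme and not a cytokine.

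Within the members, cells with more Ly6c2 carried more of the classical monocyte genes and less of the MHC class II and macrophage genes. In kidney library 2, members with 2, 3 to 4, 5 to 9 and at least 10 Ly6c2 UMIs numbered 364, 559, 631 and 237. The classical monocyte list without rule genes summed to 5848, 7293, 8152 and 8561 CPM in that order. The MHC class II list summed to 22570, 21079, 18509 and 15851 CPM, and the macrophage list without rule genes to 1448, 1135, 922 and 876 CPM. The interferon-gamma list summed to between 13925 and 14522 CPM with no order over the bins, although Cxcl9, one of its genes, went from 4512 over 3949 and 3863 to 3211 CPM. The type I interferon list went from 3185 to 3817 CPM between the lowest and the highest bin. Vcan went from 118 to 416 CPM between the lowest and the highest bin, and H2-Ab1, a chain of the class II molecule I-A, from 3863 to 2584 CPM.

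Kidney library 1 had 119, 91 and 53 members in the lower 3 bins and only 1 with at least 10 UMIs, which is left out. Its classical monocyte sum went from 7734 over 8652 to 9059 CPM, its MHC class II sum from 24050 over 21892 to 21532 CPM, and its macrophage sum from 2975 over 2431 to 1899 CPM. Its type I interferon sum went from 2181 over 2292 to 2659 CPM. The order was the same in both libraries for these 4 lists. Its interferon-gamma sum was 11881, 13024 and 11761 CPM, and Cxcl9 stood at 3995, 4088 and 3285 CPM. In kidney library 2 the median depth was 2194 UMIs per cell in the lowest bin and 3224 in the highest, and its part in these trends was not tested. The bins hold cells of 1 library each and carry no replicate error.

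**Figure D4:**
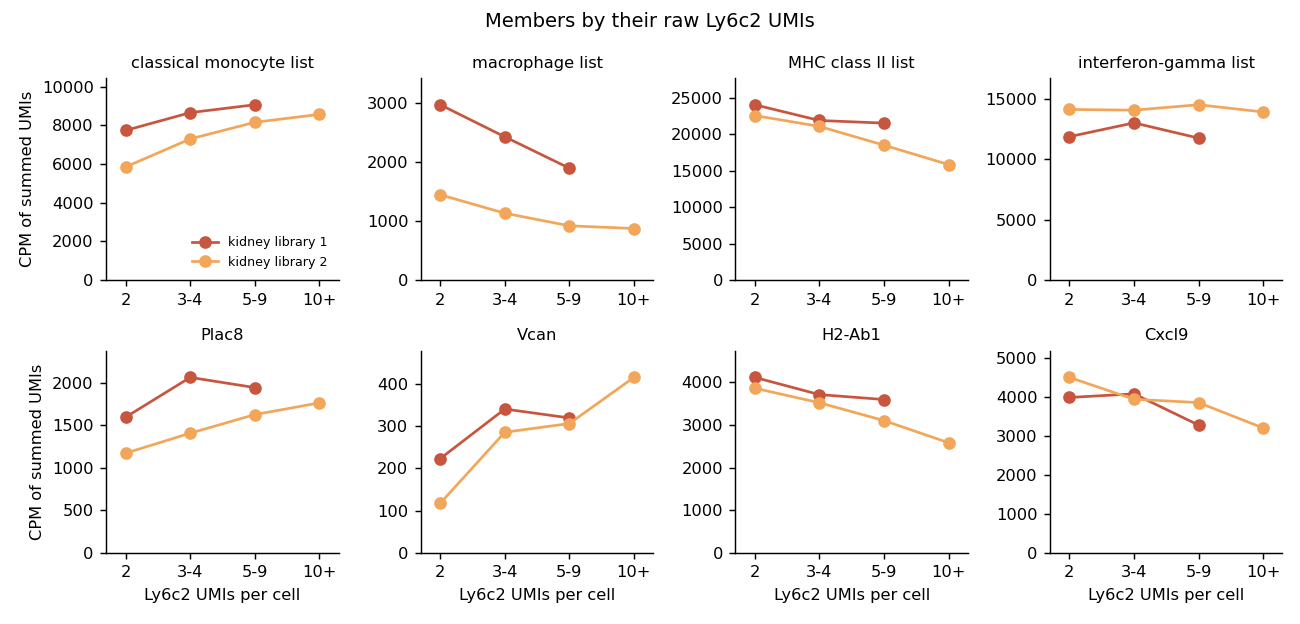
CPM of summed UMIs in members with 2, 3 to 4, 5 to 9 and at least 10 Ly6c2 UMIs, for 4 gene lists without rule genes and 4 genes, with 1 line for each kidney library. The classical monocyte sum was higher and the MHC class II sum lower in bins with more Ly6c2, while the interferon-gamma sum stayed between 13925 and 14522 CPM and Cxcl9 went from 4512 to 3211 CPM in kidney library 2.

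The libraries also differed in the state of the members. Of 2048 genes at 100 CPM or more in at least 1 library, mitochondrial, ribosomal protein and antigen receptor genes aside, 47 were at least 2-fold higher in kidney library 1 and 28 in kidney library 2. Hes1, a target of Notch signalling, stood at 100.3 CPM in kidney library 1 and 7.68 CPM in kidney library 2. The immediate early gene Fosb stood at 102 and 18.6 CPM, and Cd83, a surface protein of activated antigen-presenting cells, at 116 and 22.0 CPM. All 3 were also lower in C1q-positive cells of kidney library 2. In that class Hes1 stood at 106 and 4.11 CPM, Fosb at 130 and 34.9 CPM and Cd83 at 113 and 34.2 CPM. In CD8+ T cells Fosb stood at 33.7 and 12.98 CPM and Cd83 at 10.9 and 2.60 CPM, so the libraries differ in more than their monocytes. Hes1 stood at 3.37 and 0.324 CPM there, which is too little RNA to weigh. The 11 genes that tissue dissociation is known to induce summed to 2566 and 1416 CPM in members and to 1249 and 585 CPM in CD8+ T cells.

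Other genes were higher in kidney library 2. Ly6i, a Ly6 family neighbour of Ly6c2, stood at 481 and 1242 CPM in members, and Ly6a, which encodes Sca-1 and is induced by interferon, at 1043 and 2237 CPM. The complement factor B gene Cfb stood at 318 and 790 CPM. C1q-positive cells shared these differences, with 275 and 731 CPM of Ly6i, 1131 and 2410 CPM of Ly6a and 282 and 449 CPM of Cfb. CD8+ T cells held 171 and 456 CPM of Ly6a but only 5.47 and 8.44 CPM of Cfb.

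Against naive spleen cells that met the same rule, members carried the interferon-gamma response at high levels. UMIs were summed per library, and edgeR's quasi-likelihood test compared 2 kidney with 5 spleen libraries over 7578 genes outside the rule, with Benjamini-Hochberg adjustment and a threshold of 0.05. It called 1995 genes higher (26.3%) and 965 lower (12.7%), and the median log2 fold change over all genes was 0.22 (0.12 when libraries were scaled by TMM factors). Without kidney library 2, which left 1 kidney library that is assumed to vary like the others, it called 1177 higher and 350 lower. Organ, transplantation, digestion and the number of genes listed differ between the groups. Recipient strain, by the study's description of the rejection model, and the way reads were counted per gene may differ too. These cannot be told apart.

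The naive cells differ from the members in more than their organ. They were deeper, with a median of 6600 UMIs. Neutrophil granule RNA was held by 28.5% of them, from 0% in spleen library 2 to 39.2% in spleen library 1, against 1.22% of members. A UMI of the T, NK, B and plasmacytoid dendritic cell markers named above was held by 23.8% against 7.59%. The genes tested of the B cell (3 of 3), conventional dendritic (2 of 3, or 3 of 3 without granulocyte RNA), plasmacytoid dendritic (2 of 5) and T cell (1 of 1, or 1 of 2 without granulocyte RNA) lists were lower in members where they passed, and none was higher. The call of the T cell gene Cd8b1 held under 7 of 12 alternatives and that of the plasmacytoid dendritic gene Siglech under 9 of 14. Of the NK cell list 0 of 2 were lower, or 1 of 3 without granulocyte RNA. Of the kidney epithelium and podocyte list 1 gene was tested and was higher: Nphs1, the podocyte gene of nephrin, stood at 33.4 and 21.03 CPM in members, at most at 1.04 CPM in naive spleen and at 62.3 and 70.4 CPM in CD8+ T cells of the same kidneys (log2 fold change 5.48 ± 0.78, edgeR adjusted p = 3.58e-05; 4.99 without granulocyte RNA). Of 11 dissociation genes, 2 were higher and 4 lower (3 and 5 without granulocyte RNA). Without the cells of both groups that hold granulocyte RNA, 216 naive cells remained, and 1840 of 7307 genes were higher in members (25.2%) and 1209 lower (16.5%), of which 1718 and 802 were also called with all cells. Fold changes also moved with gene structure: the median was -0.44 over the 754 genes with the shortest introns (median 632.5 bases) and 1.40 over the 754 with the longest (167440 bases). After adjustment for intron length, 1251 genes were higher and 1262 lower, which is 49.8% higher among those called against 67.4% before. The adjustment centres each group of genes of like intron length, so a near-even balance is built into it and does not measure how much of the rise came from intron counting. The part of intron counting in any single gene was not tested. Where leaving out the cells that hold granulocyte RNA changed the count of a list, both counts are given.

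**Figure D5:**
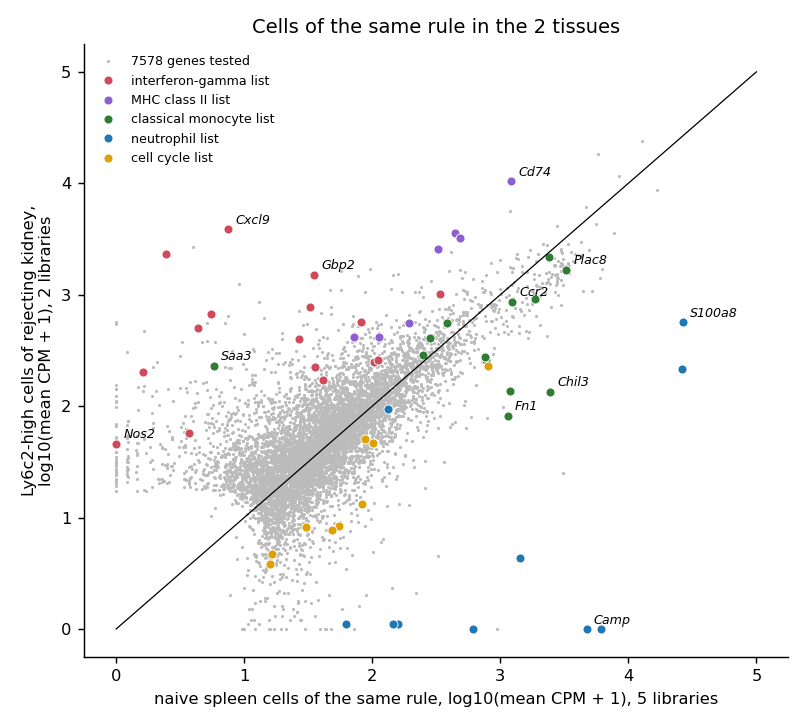
Mean CPM, on a log10(CPM + 1) scale, of 7578 genes in naive spleen cells of the same rule (horizontal, 5 libraries) and in members (vertical, 2 libraries), with 5 gene lists in colour and a line of equal level. All 17 interferon-gamma genes lie above the line, and Camp, S100a8 and most of the neutrophil list lie far below it.

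All 17 interferon-gamma response genes tested were higher in members, with a median log2 fold change of 3.99. The same 17 were called without granulocyte RNA and with the intron adjustment added to that. Cxcl9 stood at 3854 and 3883 CPM in members, at 0 CPM in spleen libraries 1, 2 and 4, and at 2.42 and 30.1 CPM in spleen libraries 3 and 5. Its log2 fold change was 11.30 ± 0.49 (SE; edgeR adjusted p = 1.68e-10). CD8+ T cells of the same kidneys held 74.0 and 56.1 CPM, and after thinning Cxcl9 was found in 76.4% of members, 7.28% of CD8+ T cells and 0% of naive cells. Cxcl10, a second ligand of CXCR3, stood at 430 and 904 CPM in members and between 0 and 7.09 CPM in naive spleen (log2 fold change 7.01 ± 0.38, edgeR adjusted p = 1.32e-09).

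The interferon-gamma list includes guanylate-binding proteins and immunity-related GTPases, which attack vacuoles of intracellular pathogens. Gbp2 stood at 1594 and 1415 CPM in members and between 21.1 and 48.4 CPM in the 5 spleen libraries, a log2 fold change of 5.39 ± 0.27 (edgeR adjusted p = 5.18e-10). Iigp1 stood at 1955 and 2649 CPM and at 0 in 4 spleen libraries, with 7.31 CPM in the other. Gbp2b, which is not in the list and whose sequence is close to that of Gbp2 so that reads may be divided between the copies, had no UMI in any naive cell and was at least 418-fold higher in members. Gbp3, Gbp5, Gbp6, Irgm1 and Igtp were also higher.

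Regulators of the response and its effectors were higher as well. Irf1, the transcription factor that relays the interferon-gamma signal, stood at 465 and 676 CPM in members and between 31.5 and 163 CPM in naive spleen (log2 fold change 3.27 ± 0.39, edgeR adjusted p = 5.75e-06). Socs1, which limits the signal, stood at 52.5 and 59.3 CPM in members and at most at 6.05 CPM in naive spleen. Cd274, which encodes the checkpoint ligand PD-L1, stood at 532 and 477 CPM and at most at 9.40 CPM in naive spleen (log2 fold change 6.21, edgeR adjusted p = 1.98e-09). Nos2 had no UMI in naive cells and was at least 40.1-fold higher in members and was found in 3.26% of them after thinning, against 0.0458% of CD8+ T cells. The proteasome and transporter genes Psmb8, Psmb9 and Tap1, which supply peptides to MHC class I, had the smallest changes of the list, with log2 fold changes of 1.54, 1.29 and 1.47. Ido1 was at 1.59 and 0 CPM in members and was not tested.

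The MHC class II genes were higher in 7 of 7 cases, with a median log2 fold change of 3.19. H2-Ab1 stood at 3857 and 3260 CPM in members and at 208, 355, 70.2, 416 and 1174 CPM in spleen libraries 1 to 5. Cd74 stood at 10784 and 9942 CPM in members and between 259 and 2619 CPM in naive spleen (log2 fold change 3.19 ± 0.52, edgeR adjusted p = 0.000118). Spleen library 5, which had 7 cells, was the highest of the naive libraries in both genes, and neither group overlapped the other. Ciita, the transactivator on which class II genes depend, stood at 417 and 413 CPM in members and between 25.4 and 181 CPM in naive spleen. After thinning, Cd74 was found in 97.2% of members, 16.6% of naive cells and 22.7% of CD8+ T cells, a class that makes little of it.

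Genes of the type I interferon response, which overlap with the above, changed less. Of 15 tested, 11 were higher (12 without granulocyte RNA) and 1 lower, with a median log2 fold change of 1.47. Ifit2 stood at 150 and 227 CPM in members and between 0 and 21.8 CPM in naive spleen. Isg15, the ubiquitin-like modifier, stood at 248 and 309 CPM in members and between 52.2 and 94.4 CPM in naive spleen. Bst2, or tetherin, was the lower gene (-1.25, edgeR adjusted p = 0.0455) and its groups overlapped, since spleen library 5 stood at 120 CPM between the members' 110 and 141 CPM. Its call held under only 7 of 16 alternatives, with log2 fold changes from -1.48 to -0.39. It was lost with DESeq2, the intron adjustment and each of 3 other forms of the rule, and without either kidney library or spleen library 4 or 5. Without kidney library 2 the calls of Irf7, Oasl2, Stat2 and Usp18 were lost too. Ifit1, Rtp4 and Cmpk2 did not pass the threshold.

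Most markers of the classical monocyte in naive spleen were lower in the graft. Of 13 classical monocyte genes tested, 7 were lower (8 without granulocyte RNA) and Saa3 alone was higher, with a median log2 fold change of -0.95. Chil3 stood at 181 and 83.5 CPM in members and at 3336, 830, 3285, 864 and 3853 CPM in spleen libraries 1 to 5, with no overlap. Its log2 fold change was -4.21 ± 0.64 (edgeR adjusted p = 6.81e-05), and -3.60 ± 0.38 without granulocyte RNA (edgeR adjusted p = 2.76e-08). Saa3 stood at 145 and 313 CPM in members and at 17.8, 0, 6.05, 0 and 0 CPM in spleen libraries 1 to 5, a log2 fold change of 4.59 ± 0.45 (edgeR adjusted p = 7.44e-07). The 2 markers by which the cells are labelled thus went in opposite directions.

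Fn1, the fibronectin gene, stood at 118 and 43.3 CPM in members and between 702 and 1950 CPM in naive spleen (-3.91 ± 0.47, edgeR adjusted p = 6.44e-06). Ifitm6, of the interferon-induced transmembrane family, stood at 138 and 134 CPM in members and between 548 and 2253 CPM in naive spleen (-3.14, edgeR adjusted p = 5.53e-05). Hp, F13a1, S100a4 and Plac8 were lower with log2 fold changes of -1.66, -1.51, -1.02 and -0.95; without kidney library 2 the last 3 did not pass, at -1.12, -0.82 and -0.82. Ccr2 stood at 914 and 810 CPM in members and between 920 and 1560 CPM in naive spleen. Its log2 fold change of -0.50 did not pass the threshold with all naive cells (edgeR adjusted p = 0.117) and passed without granulocyte RNA (-0.81, edgeR adjusted p = 0.000236). Vcan, Ms4a4c and S100a6 did not pass. Ly6c2, which the rule sets, stood at 1407 and 2022 CPM in members and between 662 and 1574 CPM in naive cells.

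Of 8 nonclassical monocyte genes tested, 4 were lower (5 without granulocyte RNA) and none higher. The calls of Ace, Spn and Pou2f2 were lost without kidney library 2, those of Spn and Pou2f2 also without kidney library 1 or spleen library 4, and that of Pou2f2 without spleen library 5. Cx3cr1, the fractalkine receptor of patrolling monocytes, stood at 76.4 and 82.3 CPM in members and between 134 and 537 CPM in naive spleen (-1.89 ± 0.46, edgeR adjusted p = 0.00358). Among 9 macrophage genes 3 were higher, Mertk and Ms4a7 among them, a share near the 26.3% of all genes, and Cd63 and Cd81 were lower (3 higher and Trem2 lower of 7 tested without granulocyte RNA, where Cd63 and Cd81 were not tested); neither fall passed without kidney library 2, nor that of Cd81 without kidney library 1 or spleen library 1 or 3. Adgre1, Apoe, Mrc1 and, with all naive cells, Trem2 did not pass.

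Of 5 chemokine receptor genes tested, 2 were higher and 1 lower (2 lower without granulocyte RNA, with Ccr2 added), beside 26.3% and 12.7% over all genes, so the list was not set apart from them. Ccr1, a receptor for inflammatory chemokines of the CC family, stood at 374 and 254 CPM against 21.3 to 165 CPM (1.57 ± 0.42, edgeR adjusted p = 0.00651), though it did not pass without kidney library 1 (1.30). Of 8 chemokines tested, 4 were higher (Ccl2, Ccl4, Cxcl2 and Cxcl16) and 2 lower (Ccl6 and Ccl9). Ccl2 and Ccl6 did not pass without kidney library 2, at 0.20 and -1.20, nor Ccl2 without spleen library 1 (1.63). Cxcl16 stood at 323 and 419 CPM in members and between 0 and 10.5 CPM in naive spleen (6.44 ± 0.36, edgeR adjusted p = 1.73e-09). Ccl5 stood at 223 and 92.4 CPM in members and at 2640 and 275 CPM in CD8+ T cells.

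Of 6 genes of the cytokine list tested, Tnf, Il1rn, Il18 and the enzyme gene Ptgs2 were higher and none lower. Tnf, the tumour necrosis factor gene, stood at 55.7 and 95.05 CPM in members and at most at 30.1 CPM in naive spleen (3.57 ± 0.48, edgeR adjusted p = 1.80e-05). CD8+ T cells held 40.0 and 20.4 CPM of it. Il6, Il10 and Il12b were at or below 2.43 CPM in members and were not tested. Il18 did not pass without granulocyte RNA (0.70, edgeR adjusted p = 0.0701) or without kidney library 1 (0.99).

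Genes of the glycolysis and hypoxia list were higher in 9 of 12 cases and lower in none, with a median log2 fold change of 0.99 (11 higher and Eno1 lower without granulocyte RNA). Slc2a1, the glucose transporter GLUT1, stood at 169 and 125 CPM in members and between 0 and 14.2 CPM in naive spleen (3.85 ± 0.37, edgeR adjusted p = 5.04e-07). Hif1a, the hypoxia-inducible transcription factor, stood at 355 and 409 CPM in members and between 30.1 and 106 CPM in naive spleen (2.28 ± 0.24, edgeR adjusted p = 1.36e-06). Hk2, a hexokinase, had a log2 fold change of 2.29. Enzymes further down the pathway changed less: Aldoa had 1.10, Ldha 0.87 and Pkm 0.84. These 3, Pfkl and Pgk1 did not pass without kidney library 2, nor Pgk1 without kidney library 1. Gapdh, Pgam1 and Eno1 did not pass, and Eno1 lay at -0.59.

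Receptors for antibodies and microbial products were higher in 9 of 12 cases and lower in none (median 1.54; 8 of 12 without granulocyte RNA). Of these, Cd14 and Fcgr3 did not pass without kidney library 1 (0.49 and 0.50), nor Cd14 without spleen library 5 (1.20). Fcgr1, the high-affinity receptor for IgG, stood at 244 and 363 CPM in members and between 0 and 57.9 CPM in naive spleen (2.66 ± 0.27, edgeR adjusted p = 1.14e-06). Fcgr4 stood at 263 and 329 CPM and between 0 and 33.4 CPM (3.55 ± 0.35, edgeR adjusted p = 7.24e-07). The inhibitory receptor Fcgr2b did not pass, at 154 and 107 CPM against 106 to 234 CPM. The scavenger receptor Msr1 stood at 476 and 799 CPM in members and between 46.0 and 99.3 CPM in naive spleen. Tlr4, the receptor for endotoxin, stood at 86.0 and 78.3 CPM and between 0 and 21.3 CPM.

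Among 12 transcription factor genes 3 were higher, a share near the 26.3% of all genes, and 6 lower, beside 12.7% of all genes (7 without granulocyte RNA, with Nr4a1 added). Maf stood at 201 and 268 CPM in members and between 0 and 42.5 CPM in naive spleen. Klf2, which restrains monocyte activation, stood at 65.3 and 74.6 CPM in members and between 288 and 574 CPM in naive spleen (-2.60 ± 0.29, edgeR adjusted p = 2.71e-06). Cebpb, Cebpd, Cebpa, Klf4 and Irf4 were lower; the last 3 did not pass without kidney library 2, nor Cebpa without kidney library 1, nor Cebpa and Irf4 without spleen library 3, nor Cebpa without spleen library 4. Meanwhile Spi1, which encodes the myeloid factor PU.1, did not pass at all, at 497 and 595 CPM against 475 to 602 CPM. Zeb2 was higher (1.07), but the call turned with the intron adjustment (-0.45). Of 9 cell cycle genes 7 were lower (5 of 7 without granulocyte RNA) and none higher, of which Birc5, Ccnb2, Cdk1, Rrm2 and Stmn1 did not pass without kidney library 2, nor Ccnb2 without spleen library 1.

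The other lists are given as counts, to be read beside the 26.3% of all genes that were higher and the 12.7% that were lower. Of 12 antimicrobial and acute-phase genes 2 were higher and 7 lower (3 and 6 of 11 without granulocyte RNA), of which Cyba, Cybb and Slpi did not pass without kidney library 2 and the second and last of them without kidney library 1. Of 10 adhesion genes Itgb1 and Pecam1 were higher and Selplg, the ligand of P-selectin, lower, shares near those of all genes. Of 8 repair and matrix genes 3 were higher, among them Mmp14, a membrane metalloproteinase at 134 and 145 CPM against at most 5.27 CPM in naive spleen, and 2 lower, of which Mmp8 did not pass without kidney library 2 (4 lower without granulocyte RNA, with Thbs1 and Trem2 added). Of 5 Ly6 locus genes Ly6a and Ly6i were higher, with log2 fold changes of 4.89 ± 0.54 (edgeR adjusted p = 2.59e-06) and 5.58 ± 0.38 (edgeR adjusted p = 1.11e-08). Ly6g, a neutrophil gene, and Ly6d, a gene of B cell precursors, were lower, at -9.22 (edgeR adjusted p = 1.37e-05) and -3.64 (edgeR adjusted p = 0.0115). Ly6g was not tested without granulocyte RNA.

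The neutrophil genes were lower in 9 of 10 cases with all naive cells and moved with the granulocyte RNA of the spleen libraries. S100a8 stood at 693 and 436 CPM in members and had a log2 fold change of -5.56 (edgeR adjusted p = 0.0137), but of 2.18 once cells with granulocyte RNA were left out, which used S100a9 and not S100a8. Its fall did not pass without either kidney library, and those of Camp, Retnlg and S100a9 did not without kidney library 2. Of the 3 neutrophil genes then tested S100a9 was also called higher, but its own level had helped to choose the cells left out, so its rise, and that of S100a8, whose protein pairs with that of S100a9, are values and not results. The genes with the largest falls over all naive cells (Ngp, Camp, Wfdc21, Retnlg, Mmp9, Ltf, Ly6g, Serpinb1a, Lcn2 and S100a9) are granule and antimicrobial genes of neutrophils for the most part. Without granulocyte RNA the genes with the largest falls were Hpgd, Hist1h2ap, Pdlim1, Ramp1, Fn1, Chil3, Gstm1, AI839979, 4930523C07Rik and Gsr. Hpgd, which inactivates prostaglandins, stood at 1.59 and 1.01 CPM in members and at 54.3, 255, 41.2, 326 and 30.1 CPM in spleen libraries 1 to 5.

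The genes with the largest rises over all naive cells were Gbp2b, Cxcl9, Iigp1, Cmss1, F830016B08Rik, Spon1, Plxdc2, Lrmda, Gbp8 and Batf2. Of these, Cmss1, Spon1, Plxdc2, Lrmda and Gbp8 are among the 754 genes with the longest introns, from 121948 bases in Gbp8 to 1033660 in Lrmda, and the others do not. Without granulocyte RNA, Acod1, Chil1 and Upp1 replaced Lrmda, Gbp8 and Batf2. Chil1 was not called with all naive cells (log2 fold change 1.21, edgeR adjusted p = 0.0833), and all its naive UMIs lay in the cells then left out. Acod1, which makes itaconate in activated macrophages, stood at 161 and 336 CPM in members and between 0 and 4.18 CPM in naive spleen. Upp1, a uridine phosphorylase, stood at 299 and 449 CPM and between 0 and 14.6 CPM. Batf2, an interferon-induced transcription factor, stood at 107 and 188 CPM and at most at 2.42 CPM.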

How the data were processed

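The authors mapped 10x Genomics 3' libraries with Cell Ranger (version not given in the sources used here) to the mm10 mouse genome, both as the submitters' processing notes name them, filtered cells by UMIs, detected genes and mitochondrial share, with limits not given in the sources used here, and deposited raw UMI counts per gene and cell. The kidney matrix lists 32285 genes and the naive spleen matrix 17644. Libraries held 13437087 and 19552578 UMIs in kidney and between 30054753 and 37016197 in spleen; no UMI count was thinned or rounded before the fit.

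The deposited counts were summed per class and library, with libraries told apart by the tag of the cell barcode. Kidney CPM use all UMIs of the class, and the fit uses the 17644 genes in both matrices. edgeR (4.0.16) quasi-likelihood fits used plain library totals, filterByExpr and a Benjamini-Hochberg threshold of 0.05; DESeq2 (1.42.0), TMM factors, no filter, stricter and thinned rules, an intron length adjustment in 10 groups (17342 genes matched to GENCODE M21) and leaving out each library were alternatives. Leaving out cells with granulocyte RNA was chosen after seeing the data. The SE beside a log2 fold change was not given by the fit. It is the absolute fold change on that scale divided by the square root of the F statistic of the test. On simulated counts for 7583 genes of this comparison, 100 genes were changed 2-fold and 100 were changed 4-fold. Of these, 33% and 96% were recovered, with 28 false calls. False calls were thus a larger share of all calls than the threshold of 0.05. No doublet caller was run. The rule removes cells with RNA of the T and B cell genes it names. A stricter rule also removed cells with a UMI of Trac, Trbc1, Trbc2, Cd8a, Nkg7, Ncr1, Cd79b or Siglech, and of no other lineage marker. A fold against no UMI was bounded at 3 counts summed over the group.

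The members and gene lists were chosen with earlier results of these data known. Named genes were the markers, the list genes and, per comparison, the 10 largest and 10 smallest ratios among called genes at 100 CPM or more in the higher group, leaving aside genes of the rule, of mitochondria and of ribosomal proteins, and antigen receptor genes; other names were chosen after their values were seen. Values of some list genes are not reported here, although counts over the lists include them. The libraries' 240 barcodes shared among spleen libraries were kept. Python 3.11.15 with numpy 2.4.6, scipy 1.17.1 and pandas 2.3.3 and R 4.3.3 were used.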

Additional observations from a re-analysis of the deposited data

Results flagged for a closer look

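In 6 of 25 measures tested, which were levels of genes and the share of cells meeting the rule, 1 naive spleen library stood far from the other 4. All 6 were levels of genes over the cells that met the rule. Chance sets apart about 5% of groups of values that vary freely, a rate that does not hold where the other 4 libraries are at 0 and 1 UMI is enough, as in 3 of these genes. Ly6c2 stood at 662.2 CPM in spleen library 5 and between 1374 and 1574 CPM in the others. Cxcl9 stood at 30.1 CPM in spleen library 5 and at most at 2.42 CPM in the others, and Plxdc2 at 30.1 CPM in spleen library 5 and at most at 5.27 CPM in the others. Spleen library 5 had 7 such cells, in which 3 UMIs amount to 90.3 CPM, so both values lie under that floor. Iigp1 stood at 7.312 CPM and F830016B08Rik at 1.045 CPM in spleen library 1, and Batf2 at 2.421 CPM in spleen library 3, each with 0 in the other 4 libraries. The floors of 3 UMIs were 3.13 CPM in spleen library 1 and 3.63 CPM in spleen library 3, and of these 3 only Iigp1 was above its floor. All 6 levels were part of the comparison with the rejecting kidney, and no cause was tested.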

How the results depend on the processing

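Of 160 named or listed genes, 106 kept their call under every alternative in which they were tested (97 of them in all 16), 49 lost it under at least 1, 3 reversed, and 2 that were not called (Ccr2 and Ms4a4c) were called under at least 1. Of the 127 lost calls 46 came without kidney library 2 and 21 with DESeq2. The reversals were S100a9, whose own level helped to choose the cells left out (1.41 without granulocyte RNA, 1.69 with the intron adjustment added), S100a8 (2.18 and 2.70) and Zeb2 (-0.45 with the intron adjustment, -0.66 without granulocyte RNA as well). The count of genes higher than in naive spleen was 1291 with DESeq2, 1251 with the intron adjustment, 1296 with that adjustment and no granulocyte RNA, and 1177 to 2167 when 1 library was left out; the count of lower genes was 350 to 992 when 1 library was left out. Without the filter on low counts, 2671 were higher and 1283 lower of 15240 tested.

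Against C1q-positive cells, a 3-fold limit left 28 higher and 21 lower genes, a minimum of 20 CPM gave 158 lower genes, and 1 library alone gave 146 to 151 higher and 134 to 149 lower. The share of members with a Chil3 UMI was 15.7% without thinning, 4.04% at 500 UMIs and 7.09% to 11.7% in 1 library alone; for Saa3 it was 22.4% without thinning and 6.82% to 16.5% in 1 library alone. The share of members among CD45+ cells was 4.91% to 27.3% in 1 library alone. Apart from those built from fewer samples or genes, the cause of these changes was not tested. No paired analysis was possible because the kidney and spleen libraries share no replicate number in the labels. Depth limits rare genes: 3 UMIs amount to 4.78 CPM in kidney library 1, 0.607 CPM in kidney library 2 and 90.3 CPM in spleen library 5.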
